A study of Mus musculus with 15 samples.

Results

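Ankyrins and spectrins build the sheet of proteins under the neuronal plasma membrane, and 6 of their genes were followed here in cortical interneurons through postnatal life. The members are the ankyrin genes Ank1, Ank2 and Ank3, the alpha spectrin gene Sptan1 and the beta spectrin genes Sptbn1 and Sptbn4. They were chosen by symbol, and every probe set annotated to 1 of these symbols alone was taken, which gave 25 of the 34945 single-gene probe sets, for 6 of 18193 genes on the array. Of these 25, 13 exceeded 5 on the log2 scale, the limit used here between signal and background, on at least 3 of the 15 arrays and were tested, among 15381 tested probe sets in all. Tested probe sets numbered 1 of 4 for Ank1, 2 of 6 for Ank2, 4 of 6 for Ank3, 2 of 2 for Sptan1, 3 of 6 for Sptbn1 and 1 of 1 for Sptbn4.

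Alpha and beta spectrin pair into long tetramers that cross-link short actin filaments into a periodic submembrane lattice along axons. Ankyrins clamp ion channels and adhesion molecules to beta spectrin. At the axon initial segment and at nodes of Ranvier, ankyrin G, the product of Ank3, and beta IV spectrin, the product of Sptbn4, hold sodium channels in place. Ankyrin B, from Ank2, and beta II spectrin, from Sptbn1, line the rest of the axon, while ankyrin R, from Ank1, was first known from the red blood cell membrane and is also made in fast-spiking interneurons.

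The neurons were GFP-positive cells of G42 mice, a transgenic line that carries GFP under control of the Gad1 promoter and marks parvalbumin interneurons of the fast-spiking class. Mice were at postnatal day 7 (P7), P10, P15, P25 or P40, the last group reaching up to P45, with 3 animals and 3 Affymetrix 430 2.0 arrays per age. All 5 groups carried the transgene and differed in age, with no other genotype or treatment in the labels. Primary somatosensory cortex was cut in slices of 400 µm and digested with 1 mg/ml protease, and 23 to 85 cells per animal were picked by hand, so the RNA is that of the picked cells and says nothing about where a protein sits. Between 0.3 and 1 ng of RNA went through 2 rounds of T7 amplification.

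The cell label was checked against marker genes. Of 7 parvalbumin interneuron markers, 5 or 6 exceeded 5 on each P7 array and 6 on each array of the later ages, and Gad1, the GABA-synthesizing enzyme, averaged 14.98 ± 0.14 at P40 and 13.88 ± 0.46 at P7 (log2, SD, n = 3). Pvalb itself averaged 14.28 ± 0.20 at P40 and was at background at P7, at 3.62 ± 0.72. Erbb4 was the marker missing at the later ages. It exceeded 5 on 1 of 15 arrays and averaged 3.79 ± 0.18 at P40 and 4.68 ± 0.56 at P7. Lhx6, over 5 on all 15, averaged 11.28 ± 0.09 at P40 and 12.11 ± 0.21 at P7. The means of Gad2, Slc32a1 and Kcnc1 were higher at P40 than at P7. None of 5 excitatory neuron markers and none of 6 endothelial and mural markers exceeded 5 on any array. The summed level of 6 oligodendrocyte markers, as their mean log2 value, lay between 5.76 and 6.49 on the P25 arrays and between 4.19 and 5.27 on the arrays of the other ages. Of these markers Mbp and Mobp, both myelin protein genes, were highest at P25. Mbp averaged 11.21 ± 0.63 at P25 and between 6.52 and 8.22 at the other ages, over 5 on all 15 arrays. Mobp averaged 7.47 ± 1.03 at P25 and was under 5 on every other array. Cnp, an enzyme of myelinating cells, was over 5 on all 15 arrays and highest at P7, at 10.75 ± 0.23, against 9.79 ± 0.67 at P25, while Mog, Mag and Mal were under 5 on all 15. Among 6 astrocyte markers up to 4 exceeded 5 on a P25 array and up to 3 on a P10 array. Among 6 microglia markers up to 2 exceeded 5 on a P7 array, up to 1 on a P10 array and 0 from P15 on, with C1qb at 4.50 ± 0.23 at P40 and 5.39 ± 0.85 at P7, and Csf1r at 3.28 ± 0.07 at P40 and 5.11 ± 0.92 at P7. The part of microglia in the P40 minus P7 differences was not tested.

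Amplification quality differed between ages. The control difference of beta-actin, 3′ minus 5′, larger where amplified RNA is shorter, averaged 5.77 (P7), 5.73 (P10), 4.50 (P15), 5.31 (P25) and 3.93 (P40) on the log2 scale. The 3′ beta-actin control itself averaged 12.19 ± 1.04 at P25, with 11.00 on P25 replicate 2, and between 13.73 and 14.65 at the other ages. A spiked hybridization control was at background in replicates 2 and 3 of P15 (2.62 and 2.69), while the remaining 13 arrays read 7.40 or more.

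The comparison of P40 with P7 spans the weeks in which these cells become fast-spiking. Ank1 and Sptbn4 were higher at P40 by 4.5-fold and 4.16-fold, and they were the members with the largest differences. A probe set each of Ank2 and Sptan1 was also higher and 1 of 4 tested probe sets of Ank3 was lower, while other probe sets of these 3 genes did not pass the test. No tested probe set of Sptbn1 passed it. In all, 5 of 13 tested member probe sets differed between P40 and P7 (4 higher, 1 lower, adjusted p under 0.05, limma), where 41.9% of all tested probe sets did (26.0% higher, 15.9% lower). The member share is near that background, so the count itself is no result about these genes. The median difference was 0.20 over the member probe sets and 0.18 over all tested probe sets. Arrays of P40 and P7 did not overlap for 6 of the 13, where the same held for 53.1% of all. The test over all 5 ages (moderated F) called 8 of 13, where it called 44.6% of all.

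**Figure D1:**
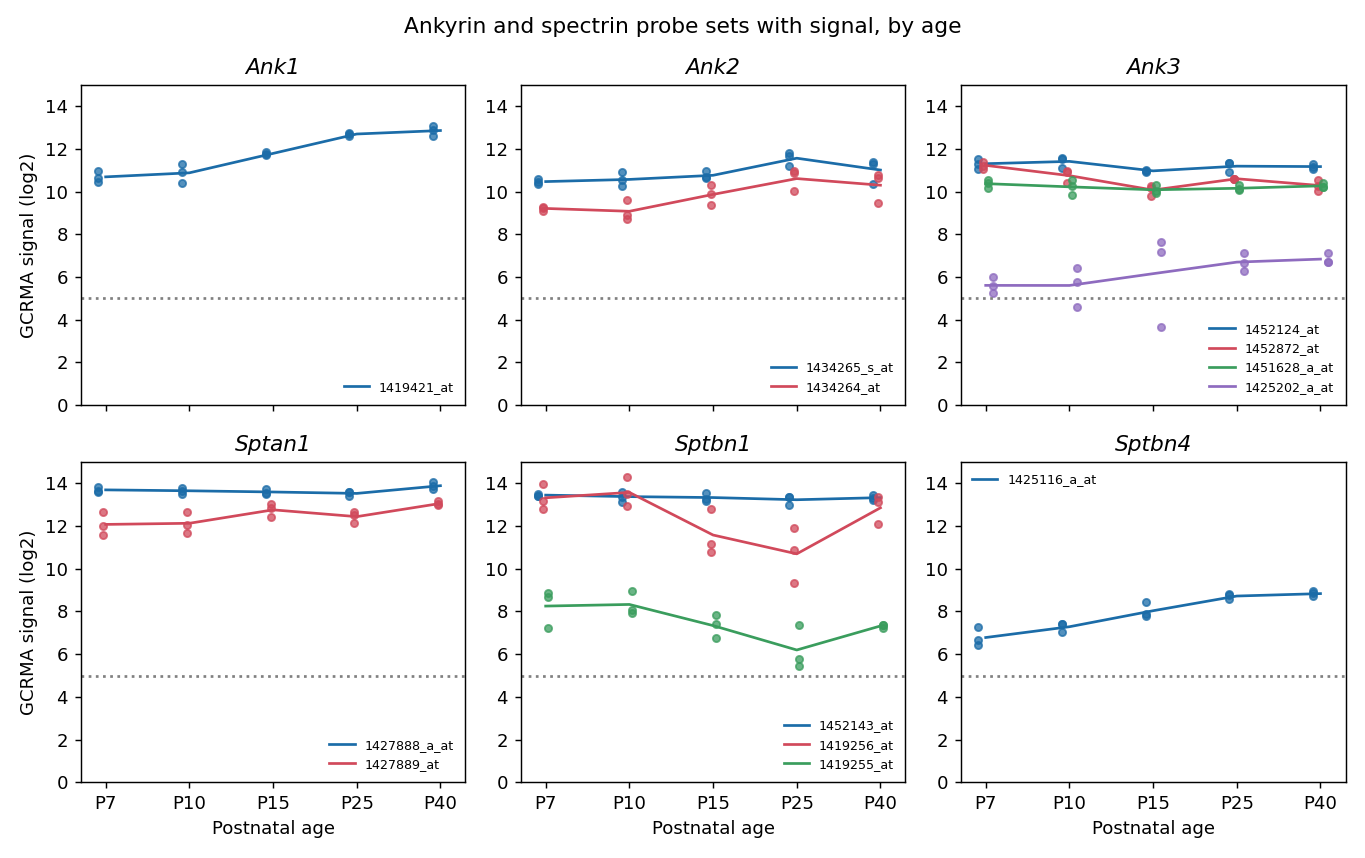
GCRMA signal (log2, y axis) of the 13 tested member probe sets at 5 ages (x axis), 1 panel per gene. Points are single arrays (n = 3 per age), lines join the means, and the dotted line marks 5. Ank1 and Sptbn4 climb with age, and the brightest probe sets of Ank3, Sptan1 and Sptbn1 differ little between ages. The other Sptbn1 probe sets have lower means at P15 than at P10 and their lowest means at P25.

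**Figure D2:**
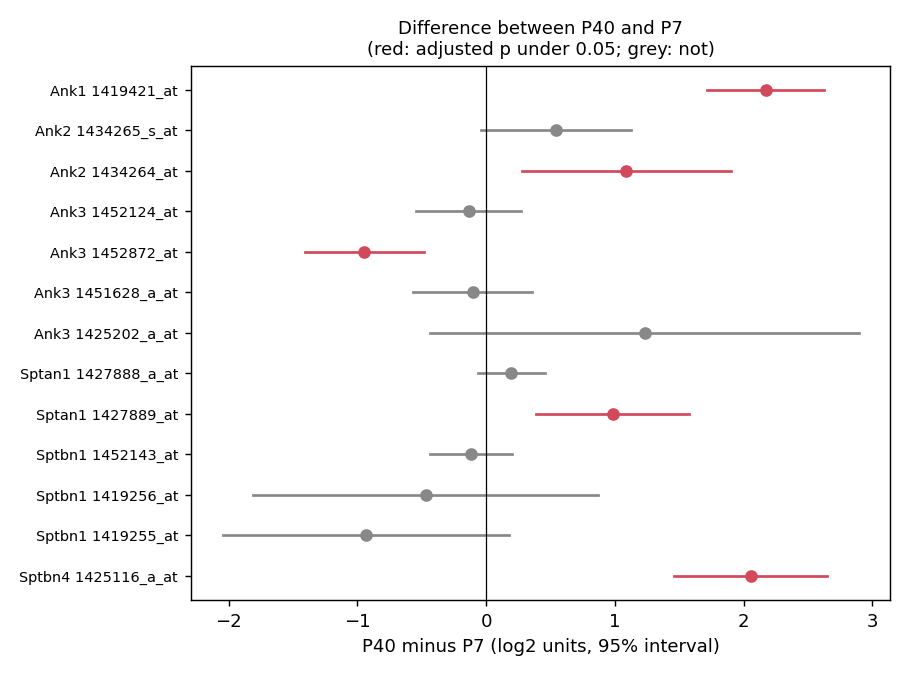
P40 minus P7 difference (log2, x axis) of the 13 tested member probe sets (y axis), with 95% intervals from limma; red marks an adjusted p under 0.05 and grey the rest. Ank1 (2.17) and Sptbn4 (2.06) lie farthest to the right, and the interval of 1452143_at of Sptbn1 spans 0.

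Levels are described first for the ankyrins. Ank1 lies on chromosome 8 (GRCm38.p6, chr8:22974836-23150501) and encodes ankyrin R. Its tested probe set, 1419421_at, read 10.65, 10.47 and 10.96 at P7, 10.41, 11.30 and 10.93 at P10, 11.77, 11.73 and 11.87 at P15, 12.63, 12.71 and 12.76 at P25, and 13.09, 12.62 and 12.89 at P40 (log2). Every P15 array was above every P10 array, every P25 array was above every P15 array, and the P25 and P40 arrays overlapped. The mean was 12.86 ± 0.24 at P40 and 10.69 ± 0.25 at P7 (SD, n = 3), a difference of 2.17 (SE 0.21, 95% interval 1.72 to 2.63, adjusted p = 3.6e-06, limma with Benjamini-Hochberg adjustment). Averaging in the 3 Ank1 probe sets at background gave 0.56, still past the threshold. In these samples of pooled cells, fewer cells that carry a transcript and less of it per cell cannot be told apart.

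Of the Ank1 difference between P40 and P7, 50.6% was present by P15 and 92.5% by P25. Between neighbouring ages, P15 exceeded P10 by 0.91 (SE 0.21, adjusted p = 0.021, limma) and P25 exceeded P15 by 0.91 (adjusted p = 0.028). These steps passed for no other member probe set, and 9.99% and 4.24% of all tested probe sets passed them. Neither call held under every setting: P15 minus P10 had an adjusted p of 0.076 without P10 replicate 1, 0.081 without P15 replicate 2 and 0.079 without P15 replicate 3. It was also lost with quantile normalization (adjusted p = 0.061), equal array medians (0.074), no filter (0.053), the number of cells as a covariate (0.26) and the beta-actin 3′ minus 5′ covariate (0.086). P25 minus P15 lost its call when any 1 array of P15 or P25 was left out, with adjusted p between 0.057 and 0.10, and with no filter (0.061), no trend in the prior (0.057), the number of cells (0.070) and each of the 3 control-probe covariates (0.055 to 0.41). Both calls were also lost with the mean of the gene's probe sets and without P15 replicates 2 and 3 and P25 replicate 2 together. The P10 minus P7 step was 0.19 (adjusted p = 0.73) and the P40 minus P25 step 0.16 (adjusted p = 0.86), and no member probe set passed either one, where 2.77% and 1.74% of all did.

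The other Ank1 probe sets, 1443291_at, 1452512_a_at and 1425677_a_at, were at background and not tested. The first exceeded 5 on 1 array, at 5.09 on P7 replicate 3, and the others on none.

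Ank2 (chr3:126921607-127500347) encodes ankyrin B, the ankyrin of the distal axon. Both tested probe sets were made from the same expressed sequence, so they are not independent readings of the gene. The brighter, 1434265_s_at, read 10.36, 10.45 and 10.61 at P7, 11.80, 11.68 and 11.22 at P25, and 11.29, 10.36 and 11.39 at P40. P25 lay above P7 on all arrays, whereas P40 replicate 2 equalled the lowest P7 array to 2 decimals. The P10 and P15 arrays lay between 10.26 and 10.98. The probe set passed the F test over 5 ages (adjusted p = 0.024) and not the P40 minus P7 test, which gave 0.54 (SE 0.27, 95% interval -0.04 to 1.12, adjusted p = 0.12). Without P40 replicate 2 the difference was 0.87 and called.

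Probe set 1434264_at of Ank2 read 9.29, 9.25 and 9.10 at P7, 8.70, 8.93 and 9.62 at P10, 9.38, 9.90 and 10.33 at P15, 10.96, 10.85 and 10.03 at P25, and 10.78, 9.48 and 10.65 at P40. It was highest at P25 in the mean, and P40 replicate 2 again fell below the other P40 arrays. P40 exceeded P7 2.13-fold (log2 difference 1.09, SE 0.38, adjusted p = 0.033, limma), with no overlap of the arrays. That call was lost with quantile normalization (0.89), with equal array medians (0.87), with the number of cells as a covariate (0.78), with any of the 3 control-probe covariates (0.69 to 1.18) and without any 1 array of P7, or P40 replicate 1 or 3. Both Ank2 probe sets had their highest mean at P25, the age at which the mean oligodendrocyte marker level, Mbp and Mobp, but not Cnp, were also highest; the part of those cells in the result was not tested. The other 4 Ank2 probe sets exceeded 5 on no array.

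Ank3 (chr10:69533486-70027436) encodes ankyrin G, the organizer of the axon initial segment. Its brightest probe set, 1452124_at, read 11.07, 11.31 and 11.55 at P7, 11.60, 11.54 and 11.11 at P10, 11.02, 10.91 and 10.99 at P15, 10.93, 11.32 and 11.34 at P25, and 11.16, 11.08 and 11.29 at P40. All ages overlapped P7 except P15, whose 3 arrays lay just below the lowest P7 value. The P40 minus P7 difference was -0.14, with a 95% interval from -0.54 to 0.27 (adjusted p = 0.60, limma). A second probe set, 1451628_a_at, gave -0.10 with an interval from -0.56 to 0.35, its arrays lying between 9.86 and 10.56 over all ages.

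Probe set 1452872_at of Ank3 was lower at P40. It read 11.20, 11.41 and 11.08 at P7, 10.95, 10.40 and 10.91 at P10, 10.28, 9.79 and 10.16 at P15, 10.60, 10.61 and 10.60 at P25, and 10.27, 10.03 and 10.56 at P40, with all arrays from P10 on below the lowest P7 array. The mean was 10.29 ± 0.26 at P40 and 11.23 ± 0.17 at P7 (SD, n = 3), 1.93-fold lower (log2 difference -0.95, SE 0.22, adjusted p = 0.0030). With the beta-actin 3′ minus 5′ difference as a covariate it was -0.80 with an adjusted p of 0.053. On the same array, 1451628_a_at minus 1452872_at averaged -0.01 at P40 and -0.86 at P7, and its change over the ages had an exact permutation p of 0.0049, or 0.054 after adjustment over 11 within-gene pairs.

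The dim Ank3 probe set 1425202_a_at, made from the same clone as 1451628_a_at, averaged 6.84 ± 0.25 at P40 and 5.61 ± 0.37 at P7 without overlap. The limma test gave 1.23 (SE 0.78, adjusted p = 0.22), and the probe set was called without P15 replicate 1 (adjusted p = 0.035), where it read 3.68 against 7.15 and 7.64 on the other P15 arrays. The remaining Ank3 probe sets, 1447259_at and 1457288_at, were not tested, the first exceeding 5 on P25 replicate 3 (5.33) and P40 replicate 2 (5.70) only.

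Among the spectrins, Sptan1 (chr2:29965560-30031451) encodes alpha II spectrin, the alpha subunit that neurons use. Its probe set 1427888_a_at read 13.61, 13.84 and 13.64 at P7, 13.51 to 13.78 at P10 and P15, 13.43 to 13.59 at P25, and 13.87, 13.72 and 14.08 at P40. P40 overlapped P7, and P25 lay below every P7 and P40 array. The P40 minus P7 difference was 0.20 (95% interval -0.06 to 0.46, adjusted p = 0.21). The second probe set, 1427889_at, from the same clone, read 12.65, 12.00 and 11.58 at P7, 12.06, 11.69 and 12.65 at P10, 12.40, 12.83 and 13.05 at P15, 12.51, 12.16 and 12.66 at P25, and 13.16, 13.03 and 13.00 at P40. It was 1.98-fold higher at P40 (log2 difference 0.98, SE 0.28, adjusted p = 0.011, limma), and no P40 array overlapped P7.

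The call on 1427889_at of Sptan1 was lost under 5 of 29 other settings. With the beta-actin 3′ minus 5′ difference as a covariate the log2 difference was 0.35, with the number of cells 0.65, with the Gapdh 3′ minus 5′ difference 0.58, with the 3′ beta-actin level 0.94 and without P7 replicate 3 0.73, none of them past the threshold. The beta-actin difference averaged 3.93 at P40 and 5.77 at P7, as given above. Its part in the result was not tested beyond these covariates.

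Sptbn1 (chr11:30099395-30268384) encodes beta II spectrin, the partner of alpha II spectrin along the axon shaft. Its brightest probe set, 1452143_at, read 13.41, 13.43 and 13.52 at P7, 13.15, 13.39 and 13.61 at P10, 13.19, 13.26 and 13.56 at P15, 13.36, 13.36 and 12.98 at P25, and 13.44, 13.25 and 13.32 at P40. The 15 arrays spanned 12.98 to 13.61, and every age overlapped P7 apart from P25, which lay below it. The P40 minus P7 difference was -0.12 (95% interval -0.43 to 0.20, adjusted p = 0.55) and the F test over ages gave an adjusted p of 0.74.

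A second Sptbn1 probe set, 1419256_at, followed another course. It read 12.82, 13.16 and 13.99 at P7, 13.48, 14.30 and 12.96 at P10, 12.80, 11.14 and 10.81 at P15, 10.87, 9.33 and 11.90 at P25, and 13.38, 12.09 and 13.11 at P40. All P25 arrays were below every P7, P10 and P40 array, and the lowest of the 15 was P25 replicate 2. P15 replicates 2 and 3 were also below every P7, P10 and P40 array, and below P25 replicate 3. The means were 13.33 ± 0.60 at P7, 10.70 ± 1.29 at P25 and 12.86 ± 0.68 at P40 (SD, n = 3), and the F test gave an adjusted p of 0.0069. No single step passed in limma: P15 minus P10 was -2.00 (adjusted p = 0.057), P25 minus P15 was -0.88 (adjusted p = 0.51) and P40 minus P25 was 2.16 (adjusted p = 0.11).

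The dimmer probe set 1419255_at of Sptbn1, from the same clone as 1419256_at, moved with it. Its mean was 8.25 ± 0.90 (P7), 8.33 ± 0.55 (P10), 7.34 ± 0.53 (P15), 6.20 ± 1.02 (P25) and 7.32 ± 0.06 (P40), with an F adjusted p of 0.020. P40 minus P7 was -0.93 (SE 0.52, adjusted p = 0.17) and -1.45, called, without P7 replicate 1. The 3′ beta-actin control also had its lowest mean at P25 and its lowest array at P25 replicate 2, and Mbp and Mobp, but not Cnp, were highest at P25. On P15 replicates 2 and 3, where 1419256_at was low too, Mobp read 2.95 and 2.90 and the 3′ beta-actin control 13.90 and 13.76. The spiked hybridization control was at background on these arrays (2.62 and 2.69). The part of any of these in the low values was not tested. The within-array difference 1419256_at minus 1452143_at averaged -0.13 ± 0.54 at P7, -2.54 ± 1.48 at P25 and -0.48 ± 0.59 at P40, with an exact permutation p over the ages of 0.038, or 0.14 adjusted over the 11 pairs. The remaining 3 Sptbn1 probe sets exceeded 5 on no array.

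**Figure D3:**
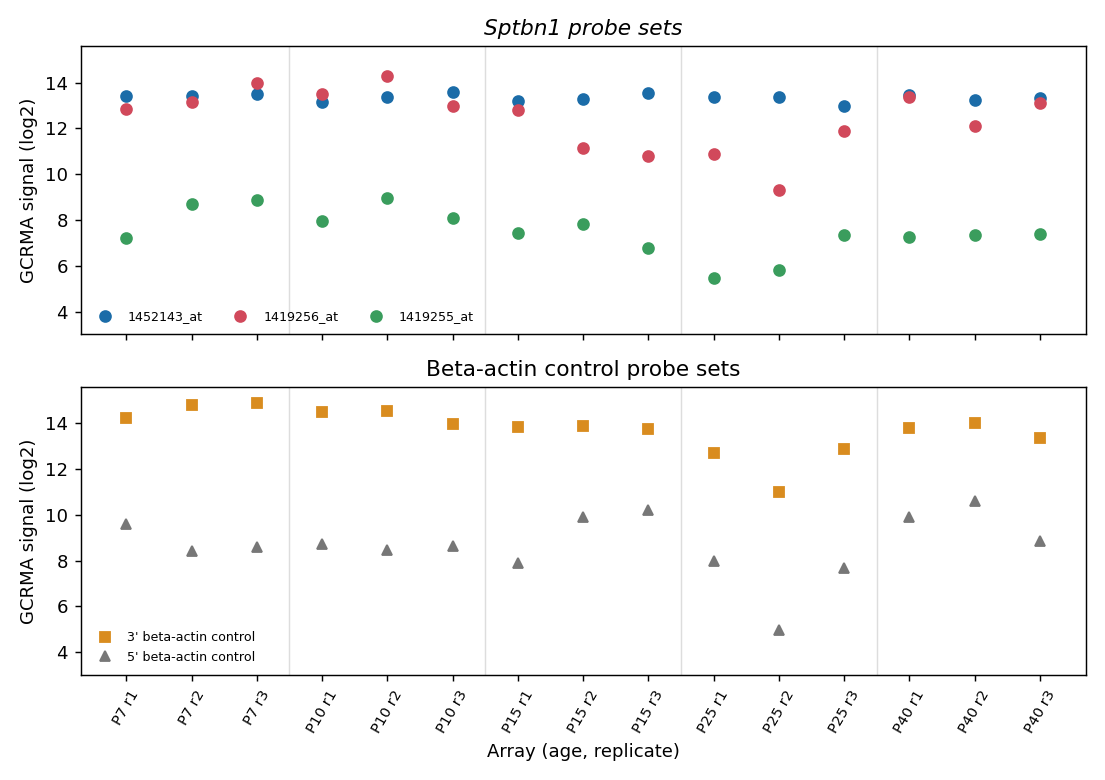
Upper panel, GCRMA signal (log2) of the 3 tested Sptbn1 probe sets on each of the 15 arrays in order of age; lower panel, the 3′ and 5′ beta-actin control probe sets on the same arrays. Probe sets 1419256_at and 1419255_at and the 3′ beta-actin control have their lowest means at P25, while 1452143_at stays between 12.98 and 13.61. Probe set 1419256_at is also low on P15 replicates 2 and 3.

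Sptbn4 (chr7:27356383-27447704) encodes beta IV spectrin, which anchors ankyrin G at initial segments and nodes. Its single probe set, 1425116_a_at, read 7.26, 6.43 and 6.65 at P7, 7.03, 7.44 and 7.39 at P10, 7.78, 7.90 and 8.42 at P15, 8.80, 8.60 and 8.77 at P25, and 8.71, 8.85 and 8.96 at P40. P15 lay above P10 and P25 above P15 on every array, and P25 and P40 overlapped. The P40 minus P7 difference was 2.06 (SE 0.28, 95% interval 1.46 to 2.65, adjusted p = 5.3e-05, limma), and none of the 31 other settings ended this call. By P15, 61% of the difference was present and by P25 94.5%, but no single step between neighbouring ages passed (adjusted p from 0.092 to 0.94).

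Sequence at listed transcript starts of beta spectrin genes is shown because Sptbn4 rose while no Sptbn1 probe set passed between P40 and P7. Sptb, described with the partner genes, rose as well. Each window holds 250 bases before and 50 after a RefSeq transcript start on GRCm38.p6, read 5′ to 3′ on the minus strand, and capitals mark the GC box GGGCGG searched on both strands. RefSeq windows were matched for 4 of the 6 members. The windows are chr7:27446540-27446839 for Sptbn4, chr12:76710498-76710797 for Sptb, and chr11:30219723-30220022 and chr11:30198208-30198507 for Sptbn1. Both Sptbn1 windows lie inside the gene, far from its 5′ end at chr11:30268384, and no window at that end was listed. The Sptbn4 window lies near the 5′ end of its gene at chr7:27447704, so the windows of these genes are not like for like.
Sptbn4: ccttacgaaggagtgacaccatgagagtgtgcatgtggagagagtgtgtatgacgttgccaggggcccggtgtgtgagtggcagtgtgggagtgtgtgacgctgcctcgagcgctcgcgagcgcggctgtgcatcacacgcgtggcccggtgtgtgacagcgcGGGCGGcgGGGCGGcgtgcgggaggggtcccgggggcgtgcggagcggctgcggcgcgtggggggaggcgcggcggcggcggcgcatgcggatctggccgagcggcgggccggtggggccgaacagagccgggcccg
Sptb: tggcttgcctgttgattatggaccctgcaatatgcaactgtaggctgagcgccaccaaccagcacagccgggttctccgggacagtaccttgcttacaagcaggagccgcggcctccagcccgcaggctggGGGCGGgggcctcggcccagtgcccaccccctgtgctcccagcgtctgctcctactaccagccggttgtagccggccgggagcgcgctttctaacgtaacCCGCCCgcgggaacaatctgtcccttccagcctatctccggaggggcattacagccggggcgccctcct
Sptbn1 upstream start: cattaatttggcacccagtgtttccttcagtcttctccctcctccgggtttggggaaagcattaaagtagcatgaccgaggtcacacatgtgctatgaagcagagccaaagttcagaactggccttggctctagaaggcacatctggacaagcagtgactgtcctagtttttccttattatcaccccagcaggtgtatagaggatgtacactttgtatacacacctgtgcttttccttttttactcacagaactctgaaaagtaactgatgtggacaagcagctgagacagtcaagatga
Sptbn1 downstream start: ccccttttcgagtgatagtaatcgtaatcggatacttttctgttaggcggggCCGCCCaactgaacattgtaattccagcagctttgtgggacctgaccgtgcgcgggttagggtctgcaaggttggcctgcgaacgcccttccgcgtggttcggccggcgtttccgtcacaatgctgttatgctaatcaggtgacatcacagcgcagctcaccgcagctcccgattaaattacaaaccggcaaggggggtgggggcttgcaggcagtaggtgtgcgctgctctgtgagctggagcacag
The Sptbn4 window held 2 GC boxes and 41 CpG dinucleotides. The 3 further listed Sptbn4 starts, inside the gene, held 1, 4 and 1 GC boxes with 33, 24 and 1 CpG. The Sptb window held 2 GC boxes and 21 CpG. The Sptbn1 windows held 0 and 1 GC boxes with 2 and 21 CpG. Of 32851 promoter windows of the same length, 35.7% held a GC box, and the median window held 7 CpG. The cAMP element TGACGTCA was in 1.79% of all windows and in none of the 4 printed. The sequence TATAAA was in 13.6% and in none of the 4 printed. The nuclear receptor half-site AGGTCA was in 16.3% and once in the upstream Sptbn1 window. It was also found once in the last of the further Sptbn4 windows. A match to these letters describes the window and names no bound factor.

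To ask whether members changed relative to each other, the difference between the brightest probe sets of 2 genes was taken on each array, which removes whatever an array shares, and its change over the 5 ages was tested for 6 pairs by exact permutation of all 1401400 divisions of the arrays. Ank1 rose relative to Ank3 by 2.31 between P40 and P7 (adjusted p = 0.00013 over 6 pairs, for any difference between ages). Ank1 rose relative to Ank2 by 1.63 (adjusted p = 0.00020). Sptbn4 rose relative to Sptbn1 by 2.18 (adjusted p = 9.8e-05) and relative to Sptan1 by 1.86 (adjusted p = 0.00013). In these 4 pairs no P40 array overlapped a P7 array. The same held for Sptbn1 minus Sptan1, which did not pass on the brightest probe sets (exact permutation p = 0.40). Such separation was common, since 53.1% of all tested probe sets, read singly, had it, so it adds nothing to the pair tests.

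Within the ankyrins, Ank3 minus Ank2 averaged 0.84 ± 0.12 at P7, -0.37 ± 0.50 at P25 and 0.16 ± 0.48 at P40 (SD, n = 3). It fell by 0.68 between P40 and P7 with overlapping arrays and an exact adjusted p of 0.013 over the ages. With the mean of each gene's tested probe sets it fell by 0.80 with an adjusted p of 0.053. Sptbn1 minus Sptan1, the 2 subunits of the main axonal spectrin, averaged -0.56 ± 0.18 at P40 and -0.25 ± 0.15 at P7 and had an exact p of 0.40. With the mean of tested probe sets that pair differed by -1.10 and passed (adjusted p = 0.014), so the result for this pair depends on which probe sets are read. These differences concern change with age, since the level of a probe set cannot be set against that of another.

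**Figure D4:**
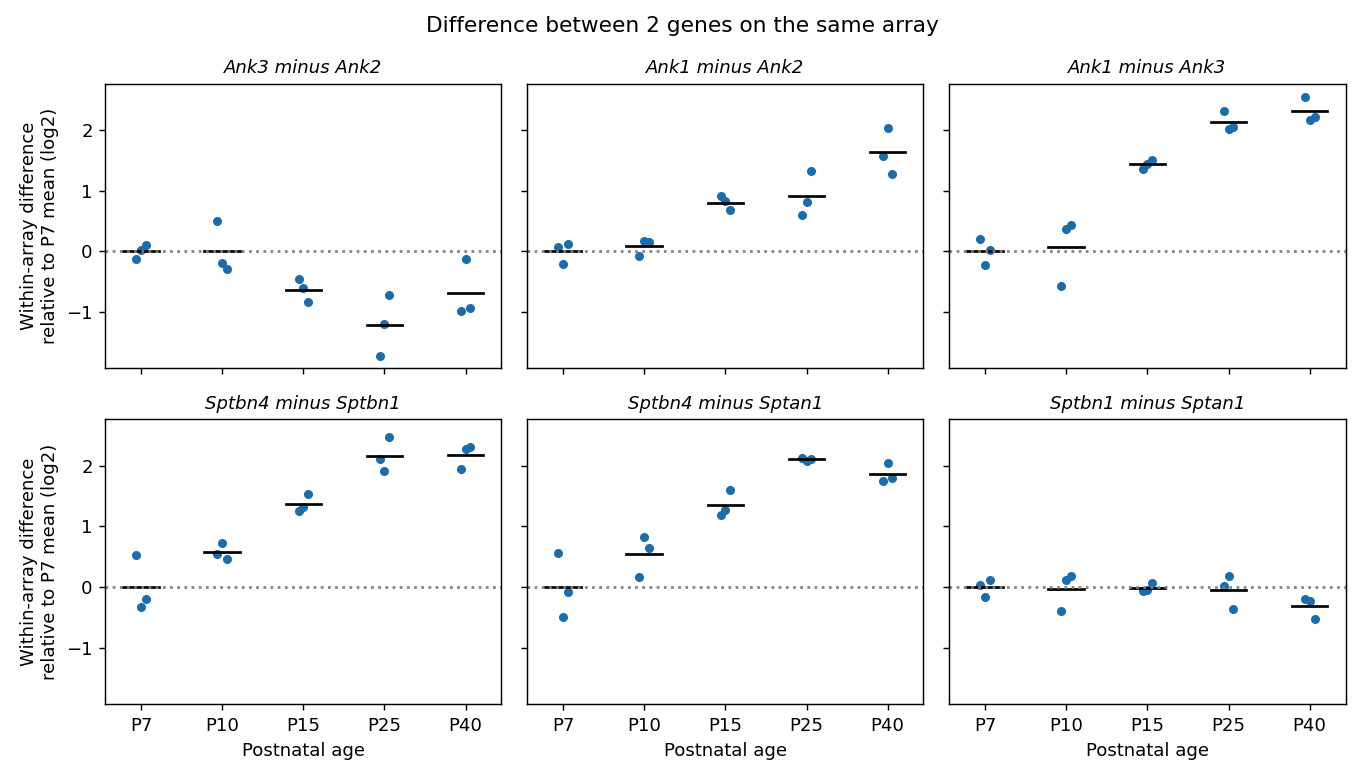
Within-array difference between the brightest probe sets of 2 genes (log2, relative to its P7 mean, y axis) by age (x axis) for 6 pairs. Points are arrays (n = 3 per age) and bars are means; Ank1 climbs against Ank2 and Ank3, Sptbn4 climbs against Sptbn1 and Sptan1, and Sptbn1 minus Sptan1 moves least.

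The genes whose brightest probe set tracked each member most closely over the 15 arrays, among 9671 others, are given as a description, because all arrays share the same 5 ages and the same amplification. For Ank1 they were Adcy9, an adenylyl cyclase (Pearson r = 0.989), Setd7, a lysine methyltransferase (0.982), and Lats2, a Hippo pathway kinase (0.973). For Sptbn4 they were Arhgef4, a guanine nucleotide exchange factor (0.979), Pkm, pyruvate kinase (0.972), and Atpaf1, an assembly factor of ATP synthase (0.971). For Ank2 they were Lsm14a (0.891), Nfat5 (0.883) and S100b (0.880), of which S100b, a calcium-binding protein of glia and some interneurons, averaged 7.43 ± 0.63 at P25 and 3.46 ± 0.11 at P7.

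The highest r was 0.890 or less for the other 3 members. For Ank3 these were Ppp1r16b (0.890), Trim8 (0.879) and Usp15 (0.859). For Sptbn1 they were Dync1i2, an intermediate chain of cytoplasmic dynein (0.828), Dock11 (0.817) and Usp34 (0.803), and for Sptan1 Mtdh (0.785), Psmd7 (0.784) and Atf2 (0.779).

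Genes of proteins that bind ankyrin or spectrin were read from 7 lists of 69 symbols, of which 57 were on the array and 53 tested, each by its brightest probe set. Of these 53, 16 were higher and 17 lower at P40 and 20 did not pass, where 44.3% of all tested genes passed (27.0% higher, 17.3% lower). The median difference was 0.06 over the 53 genes and 0.18 over all tested genes. Of the 29 genes named below, 28 were called, and 12 of these 28 calls were lost under at least 1 other setting. The mean of all of a gene's probe sets, those at background included, moved 16 of the 29 differences by over 1.5 times, ended the calls of Add2, Epb41l3, Dmtn, Mapre1 and Mapre2, and turned the direction of Dmtn.

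**Figure D5:**
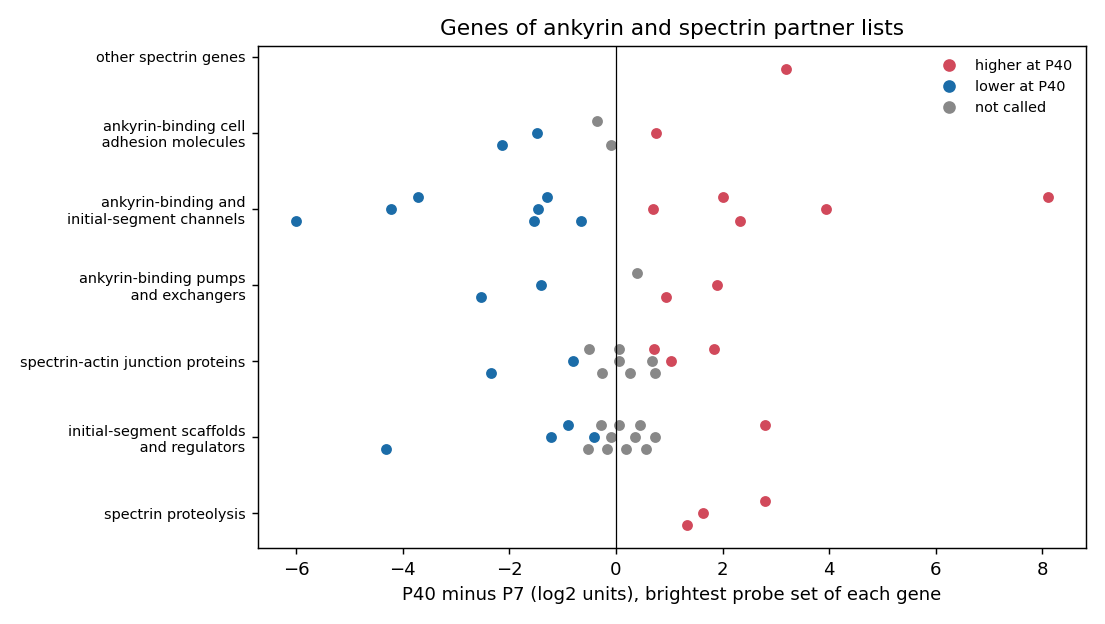
P40 minus P7 difference (log2, x axis) of the brightest probe set of each tested partner gene, 1 row per list, coloured by the limma call at an adjusted p of 0.05. Channel genes spread from -6.01 to 8.10. The gene at -6.01 was at background at P40 and that at 8.10 at P7, so neither size is a measured fold. The 3 genes of spectrin proteolysis all lie to the right of 0.

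Among other spectrin genes 1 of 1 tested rose. Sptb, which encodes beta I spectrin, the beta subunit of the red cell, read 6.51, 6.19 and 6.61 at P7, 7.52, 8.19 and 7.86 at P10, 8.27, 8.47 and 8.56 at P15, 9.39, 9.46 and 9.83 at P25, and 9.56, 9.46 and 9.89 at P40 on 1455226_at. No age overlapped the one before it up to P25. It was 9.18-fold higher at P40 (log2 difference 3.20, SE 0.26, adjusted p = 6.1e-07), and averaging in its second probe set, at background, gave 1.16. The erythroid markers Hba-a1, Alas2 and Slc4a1 were under 5 on every array.

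Of 12 tested channel genes 5 were higher and 7 lower. The sodium channel subunits of mature axons rose on their brightest probe sets: Scn1a 5.0-fold (SE 0.22 on the log2 scale, adjusted p = 2.5e-06), Scn8a 4.01-fold (SE 0.15, adjusted p = 2.9e-07) and the auxiliary subunit Scn2b 15.4-fold (SE 0.26, adjusted p = 1.1e-07). Called higher were 2 of 3 tested probe sets of Scn1a (log2 differences from 2.09 to 4.62) and 2 of 3 of Scn2b (-0.27 to 3.96). For Scn8a 4 of 4 were called higher. Scn2a, an alpha subunit of young axons, was 13.2-fold lower and Scn3a, the alpha subunit of immature neurons, at least 23.5-fold lower. The initial-segment potassium channel Kcnq3, which carries an ankyrin G binding motif, was 1.58-fold lower (adjusted p = 0.0025), and Kcnq5 2.75-fold lower.

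Of 5 tested adhesion genes 1 was higher and 2 lower. Nfasc encodes the neurofascins that ankyrin G holds at initial segments and nodes. Its brightest probe set was 1.68-fold higher (adjusted p = 0.034), a call that 11 of 31 other settings ended. Another Nfasc probe set, 1456068_at, was higher by 2.14 on the log2 scale (adjusted p = 0.00033, limma). The third, 1459357_at, differed by 0.24 and did not pass (adjusted p = 0.71). L1cam, an adhesion molecule of growing axons, was 2.79-fold lower (adjusted p = 9.5e-05) and its relative Chl1 4.4-fold lower (adjusted p = 0.00076). Nrcam differed by -0.36 and did not pass (adjusted p = 0.29).

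Of 5 tested pumps and exchangers 2 were higher and 2 lower. The sodium-calcium exchanger Slc8a1 rose 3.72-fold and the anion exchanger Slc4a3 1.93-fold, while the exchanger Slc8a3 was 2.64-fold lower and the sodium pump subunit Atp1b2 5.81-fold lower. Of 3 tested Slc8a1 probe sets 2 were called higher, with log2 differences from -0.48 to 2.03 over the 3. The Slc4a3 call was lost under 6 of 31 settings, among them without P7 replicate 3 (log2 difference 0.74) and without P40 replicate 1 (0.91), against 0.95. The Slc8a3 difference was -0.75 and not called with the beta-actin 3′ minus 5′ covariate, against -1.40. Atp1b2 depended on single P40 arrays, with -1.35, not called, without replicate 1 and -3.45 without replicate 2, against -2.54.

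Of 12 tested genes of the spectrin-actin junction 3 were higher, 2 lower and 7 not called. Add2, beta adducin, which caps actin filaments at the junction, rose 2.06-fold. Dmtn, dematin, rose 3.59-fold on its brightest probe set but fell by 2.98 on the log2 scale on another. Epb41l3, a protein 4.1 relative, was 1.64-fold higher (adjusted p = 0.039, a call that 14 of 31 settings ended), and the tropomyosin Tpm3 was 1.74-fold lower (3 of 31). The relative Epb41l2 was 5.1-fold lower, a call lost under 8 of 31 settings. Its log2 difference of -2.35 rested on single P7 arrays (7.42 ± 0.66 at P40, 9.77 ± 1.88 at P7), being -3.43 without P7 replicate 1 and -1.71 without P7 replicate 3. It was called with none of the 4 covariates.

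Of 15 tested scaffolds and regulators of the initial segment 1 was higher, 4 lower and 10 not called. Mapre3, the microtubule end-binding protein EB3, rose 6.99-fold (adjusted p = 0.00072). Its relatives Mapre1 and Mapre2 were 2.34-fold and 1.34-fold lower on their brightest probe sets. Of 5 tested Mapre1 probe sets 1 was called, with log2 differences from -1.23 to -0.08. Of 4 tested Mapre2 probe sets 1 was called, with differences from -0.42 to 0.39, and that call was lost under 3 of 31 settings. Trim46, which bundles microtubules in the initial segment, was 1.86-fold lower (adjusted p = 0.027, lost under 7 of 31 settings). Map6, a microtubule stabilizer, was 20.0-fold lower on 1 probe set and higher by 1.71 on another, both called. All 3 tested genes of spectrin proteolysis were higher: Capn2, a calpain that cuts spectrin, 2.53-fold, its small subunit Capns1 3.08-fold, and Cast, the calpain inhibitor calpastatin, at least 2.66-fold (adjusted p from 1.7e-05 to 0.0010).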

How the data were processed

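The authors deposited 1 value per probe set and array on the log2 scale, made with GCRMA (background correction, normalization and summary) per the submitters' processing notes; the version is not given in the sources used here. Values were used as deposited, and each array had 33.8 to 35.0% of its 45101 probe sets over 5. Symbols came from the platform annotation: 34945 probe sets carried 1 gene, 932 several (not used), and 9160 none.

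A probe set was tested if it exceeded 5 on at least 3 of 15 arrays. Ages were compared in R 4.3.3 with limma 3.58.1 (means model over 5 ages, trended empirical Bayes, 10 residual degrees of freedom), two-sided, with Benjamini-Hochberg adjustment over all 15381 tested probe sets within each contrast, or, for genes in partner lists, the same fit read at the brightest probe set. Calls need an adjusted p under 0.05. SE is moderated, and ± is the SD of 3 arrays. Folds need means over 5 at both ages, and are bounds against 5 where all arrays of an age lie at or under it. In a run on simulated data for P40 minus P7 (15381 probe sets, 200 changed), 8% of log2 changes of 1 and 85% of changes of 3 were recovered. In the data 41.9% of probe sets were called, and the adjustment is stricter where few change. These shares therefore do not give the power of the tests here. Pairs of genes were tested by exact permutation of the one-way F. Every member probe set is reported, together with, in each partner list, up to 3 called genes per direction by smallest adjusted p, and the genes Scn1a, Scn2a, Scn8a, Nfasc, Nrcam, Kcnq3, Trim46 and Sptb. Some other genes of the rule are not reported here. The members, lists and tests were chosen with earlier results of these data known.

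Labels number the animals 1 to 3 at each age, but each age holds different animals. The number was tried as a block. The number of arrays limits the precision. Promoter windows came from RefSeq (GRCm38.p6). Alternatives were other normalizations, filters and priors, array weights, other units, covariates, a replicate block, and arrays left out. Python 3.11.15 with pandas 2.3.3 and matplotlib 3.10.9 made the figures.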

Additional observations from a re-analysis of the deposited data

How the results depend on the processing

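The calls on Ank1 and Sptbn4 for P40 minus P7 held under all 31 other settings. Those on single probe sets of Ank2, Ank3 and Sptan1 did not, as given with their values in the report, and the cause was not tested. The animals of different ages share only a replicate number: deviations from age means of same-numbered arrays correlated at -0.42 to 0.28 over 30 pairs (median -0.06), and of differently numbered ones at up to 0.57. This number as a replicate block left every member and partner count within 1.5 times, with 4 member probe sets higher, 1 lower and 7 by the F test.

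Counts of called member probe sets moved as follows, against 4 higher, 1 lower, 8 by the F test, 1 for P15 minus P10, 1 for P25 minus P15 and 0 for P40 minus P25. Without a filter there were 6 lower, 0 for P25 minus P15 and 4 for P40 minus P25, where dim probe sets enter, and a filter at 7 gave 2 for P15 minus P10. A prior without a trend gave 0 for P25 minus P15. Array weights gave 7 for P15 minus P10, 2 for P25 minus P15 and 4 for P40 minus P25. With 1 probe set a gene there were 2 higher, 0 lower and 3 by the F test, since fewer probe sets enter, and with the mean of a gene's probe sets 0 lower, 3 by the F test and 0 in both middle steps. The number of cells as a covariate gave 2 higher and 0 in both middle steps, and the beta-actin 3′ minus 5′ covariate 2 higher, 0 lower and 0 in both middle steps. Without P15 replicates 2 and 3 and P25 replicate 2 the F test called 5 and both middle steps 0. The 3′ beta-actin level and Gapdh 3′ minus 5′ covariates were added after seeing the data: the first gave 2 higher, 3 by the F test and 0 for P25 minus P15, the second 0 for P25 minus P15.

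Leaving out 1 array at a time gave 2 to 5 higher, 1 to 2 lower, 5 to 9 by the F test, 0 to 4 for P15 minus P10, 0 to 1 for P25 minus P15 and 0 to 1 for P40 minus P25. Counts moved by over 1.5 times without P7 replicate 3 (2 higher), P7 replicate 1 (2 lower), P25 replicate 1 (5 by the F test) and P25 replicate 3 (1 for P40 minus P25). P15 minus P10 gave 0 without P10 replicate 1, P15 replicate 2 or P15 replicate 3, 4 without P15 replicate 1, 3 without P10 replicate 3 and 2 without P25 replicate 2 or 3. P25 minus P15 gave 0 without any 1 of the 6 P15 and P25 arrays. With quantile normalization and equal array medians the count of 1 for P15 minus P10 was Ank3 1452872_at (-0.87 and -0.90) in place of Ank1. Partner genes higher numbered 12 to 18 and lower 12 to 18 over all settings. Ank3 minus Ank2 was -0.80 (adjusted p = 0.053) and Sptbn1 minus Sptan1 -1.10 (adjusted p = 0.014) with the mean of tested probe sets. With the mean of all of a gene's probe sets, those at background included, Dmtn was -0.53, against 1.84. The spread of 3 arrays limits what the tests can show, and probe sets under 5 carry no order.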

Other observations

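The dip of Sptbn1 probe set 1419256_at at P25 has a counterpart in a partner gene, noticed after the values were seen. Scn1a probe set 1450120_at read 12.09, 9.93 and 10.32 at P15, 7.33, 6.01 and 10.57 at P25 and 12.50, 10.79 and 12.62 at P40, with its lowest array at P25 replicate 2, as for Sptbn1. The brightest Scn1a probe set, 1450121_at, read 12.91, 12.42 and 12.76 at P15, 13.43, 13.04 and 12.84 at P25 and 13.26, 12.99 and 13.22 at P40. In both genes the brightest probe set lay close to its values at the neighbouring ages where another was low, and P25 replicate 3 was the highest of the 3 P25 arrays on the low one. A similar order was seen in Kcnc1, a marker gene outside the partner lists. Its probe set 1423559_at read 10.92, 9.82 and 10.10 at P15, 9.57, 9.05 and 11.47 at P25 and 13.18, 11.70 and 12.87 at P40. Its P7 arrays read 7.24, 8.16 and 9.36. The brightest Kcnc1 probe set, 1443855_at, read 14.45, 14.70 and 14.45 at P25. No cause was tested.

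The probe sets of 1 gene often gave different courses in these data. Map6 and Dmtn each had a probe set called higher and another called lower at P40, and Ank3 had 1 probe set called lower among 4 tested. The files do not say which transcript each probe set reads, so these differences are given as values only.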
